A study of Chrysemys picta and Apalone spinifera with 20 samples.

Results

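The comparison described here was between the warm and the cool gonad of the spiny softshell turtle, Apalone spinifera, at embryonic stage 22. It rested on 2 of the 20 libraries of the series, 1 from eggs kept at 31°C and 1 from eggs kept at 26°C. Each library was made from the pooled gonads of 5 embryos whose sex was not determined. The series also sampled stages 9, 12, 15 and 19 of the softshell turtle and the same 5 stages of the painted turtle, Chrysemys picta, in pools of 10 embryos, with 1 library for each temperature and stage. Stage 9 libraries were of trunks and those of stages 12 and 15 of adrenal-kidney-gonad complexes. Only those of stages 19 and 22 were of gonads. No genotype, allele or agent was given for any group, and the labels set the groups apart only by species, tissue, stage and incubation temperature.

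Softshell turtles have genotypic sex determination with a ZZ male and a ZW female, so temperature is not known to decide whether their gonad becomes a testis or an ovary. In the painted turtle the same cool temperature produces males and the same warm temperature produces females. In the course of development the vertebrate gonad comes to differ between the sexes. Sertoli cells of the testis make anti-Müllerian hormone, pregranulosa cells of the ovary express FOXL2, and germ cells of the embryonic ovary enter meiosis. Because the embryos were unsexed and each temperature had 1 pool, incubation temperature, the sex makeup of the pool, the stage reached by its embryos and the dissection cannot be told apart. None of the differences below had a replicate check.

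The 26°C library held 6320590 counts and the 31°C library 7712368, within the range of 5544730 to 9501484 of the 10 softshell libraries. Every deposited count was even, as when each read of a pair is counted, so 1 read pair added 2 to a count. Counts were scaled by the 75th percentile of each library, which was 328 at 26°C and 412 at 31°C. A log2 ratio is the 31°C scaled count over the 26°C scaled count after 1 was added to each, and its 95% interval, computed on the ratio without the added 1, covers counting error only. The tissue label was checked against markers of the gonad and of its neighbours. NR5A1, a transcription factor needed for gonad and adrenal formation, had 40 counts in each library. EMX2, needed for the urogenital ridge, had 816 at 26°C and 896 at 31°C. Kidney genes were also abundant in both libraries: LRP2, an endocytic receptor of the proximal tubule, had 7068 counts at 26°C and 7008 at 31°C, and SLC12A1, a salt transporter of the loop of Henle, had 3326 and 3542. Both pools thus held RNA of nephron genes beside that of NR5A1 and EMX2, which do not set the gonad apart from its neighbours.

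Of 11999 entries with a count in either library, 249 were higher at 31°C (2.08%) and 375 were lower (3.13%) at an adjusted p under 1e-10 in Fisher's exact test on read pairs. That test compares these 2 libraries, not the 2 temperatures. The higher set held the large differences: 166 of its 249 entries differed at least 2-fold (1.38% of all tested) and 64 at least 8-fold (0.533%). In the lower set 76 of 375 differed at least 2-fold (0.633%) and 4 at least 8-fold (0.0333%). The median log2 ratio was 1.42 among entries called higher and -0.65 among those called lower, against -0.01 over the 9954 entries with 20 or more counts. A gene is called higher or lower below only where it passed this test. Where it matters, the result of a second test is given. It was edgeR's exact test with each gene's dispersion taken from the 8 softshell libraries of stages 9 to 19, which were of trunks, complexes and gonads. At an adjusted p under 0.05, 151 entries passed it as higher (1.26%) and 27 as lower (0.225%). This reading, here called the dispersion test, was chosen after the data were seen. Of the entries called by Fisher's test it also called 111 of the higher and 25 of the lower. With dispersions of all 10 softshell libraries, which include the compared pair, edgeR's exact test passed no entry at the same threshold.

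**Figure D1:**
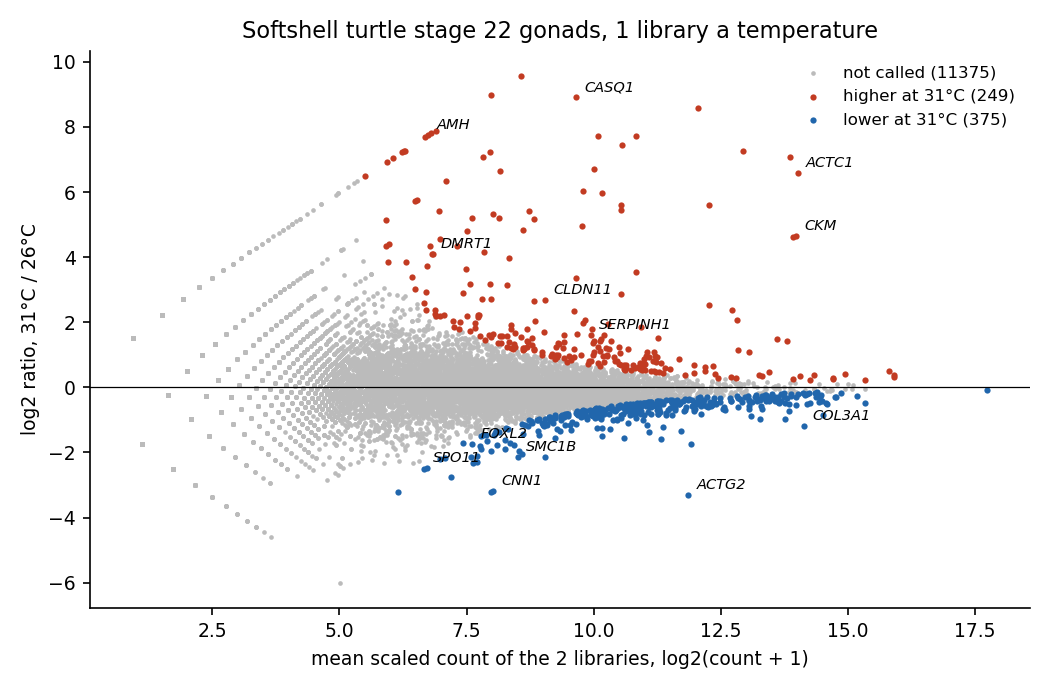
Each point is 1 of the 11999 entries, with the mean scaled count of the 2 stage 22 libraries across (log2 scale) and the log2 ratio of 31°C over 26°C up. The 249 entries called higher (red) reach log2 ratios above 8, whereas the 375 called lower (blue) mostly lie near the line of no difference, with ACTG2 at -3.32 among the lowest.

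The largest differences were in genes of striated muscle, all higher at 31°C. Of 19 skeletal muscle genes listed in the table, 17 were called higher and none lower, with a median log2 ratio of 5.06. MB, myoglobin, had no count in either library and TNNI2, a fast troponin I, had 10 and 30 counts and did not pass. The summed scaled count of the list was 12.8 times as high at 31°C, and these genes took 0.0970% of the cool library's counts (Wilson 95% bounds of 0.0936 and 0.101) against 1.28% of the warm library's (bounds of 1.27 and 1.29). Of the 17 genes, 14 also passed the dispersion test.

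The members covered several parts of the contractile apparatus. CASQ1, the calcium store protein of fast fibres, had 2 counts at 26°C and 1722 at 31°C, with a log2 ratio of 8.91 and an interval of 6.94 to 14.73. MYL1, a fast myosin light chain, had 14 and 3242 counts (log2 ratio 7.44, interval 6.48 to 8.84). CKM, muscle creatine kinase, had 1064 and 33412 counts (4.64, 4.52 to 4.77). In each, the warm library was the high one and the intervals lay far from 0. TNNC2, fast troponin C, had 170 and 10438 counts (5.60), and TNNC1, slow and cardiac troponin C, had 30 and 2436 (5.97). MYH7, slow myosin heavy chain, had 46 and 1814 counts (4.95). ACTN2, an actin cross-linker of the Z disc, had 20 and 946 counts (5.18). RYR1, the calcium release channel, had 122 and 1588 counts (3.36). Thin filament, thick filament, Z disc and calcium handling genes thus all lay on the same side. Outside the list, SLN, the calcium pump regulator sarcolipin, had 14 and 3918 counts (7.71), and an entry described as parvalbumin beta-like, chosen after its values were seen, had 86 and 16830 (7.27).

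Regulators of muscle fate were also among the genes that the cool library lacked or held at few counts. MYOG, the transcription factor that starts terminal muscle differentiation, had 0 counts at 26°C and 142 at 31°C, 37.7-fold higher against a floor of 3 counts per library. MYF6, of the same family, had 4 and 260 counts (log2 ratio 5.42). VGLL2, a cofactor expressed in muscle, had 0 and 166 counts, 44.1-fold higher against the floor. LMOD3, which nucleates thin filaments, had 0 and 254, 67.4-fold higher against the floor. TNNI1, slow troponin I, had 0 and 160, 42.5-fold higher against the floor. None of these folds against the floor is a lower bound. In all, 22 entries had no count at 26°C and 40 or more at 31°C, and 12 of these were called. Those with a symbol also included TMEM182 (240 counts), CSRP3 (164), SYNPO2L (130), LMOD2 (96), SMPX (86), STAC3 (76), DMPK (66), HSPB3 (64), FGF4 (52), PPP1R3A (46) and CDH15 (42), and AMH, described below. Of these, LMOD2, SYNPO2L, CSRP3 and TMEM182 passed Fisher's test and the others named in that sentence, AMH apart, did not. In the other direction 1 entry, with no symbol, had 54 counts at 26°C and 0 at 31°C, and it was not called.

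Striated muscle actins need a caution. ACTC1, cardiac actin, had 292 and 35254 counts (log2 ratio 6.58, interval 6.35 to 6.83) and ACTA1, skeletal actin, 1034 and 32078 (4.63, 4.50 to 4.76). Muscle actins are near-identical in their coding sequence, so their reads could be shared between entries and each single value is uncertain. ACTB, cytoplasmic actin, had 45824 and 74304 counts, a log2 ratio of 0.37.

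At stage 19 no gene of the list was called higher. There the summed scaled count of the list was 5518 at 26°C and 5583 at 31°C, its median log2 ratio was -1.07, and 1 of its genes, RYR1, was called lower. The change of the CKM log ratio from stage 19 to stage 22 was 5.09 (adjusted p = 1.71e-216 in a Wald test on the read pairs of the 4 libraries). The Wald test, here and below, covers counting error only and not variation between pools. Over the 10 softshell libraries, trunks and complexes included, the summed scaled count ranged from 5518 to 17050 in the other 9. It reached 91501 only at 31°C and stage 22. In the painted turtle at stage 22 the list also had a positive median, 2.52, with 13 genes called higher and none lower. Among the 64 entries at least 8-fold higher in the warm softshell library, 32 were called higher in the painted turtle too. None was called higher at softshell stage 19, where 9 were called lower. Over all entries 8.81% were called higher in the painted turtle. At softshell stage 19 the shares were 2.09% higher and 3.69% lower.

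**Figure D2:**
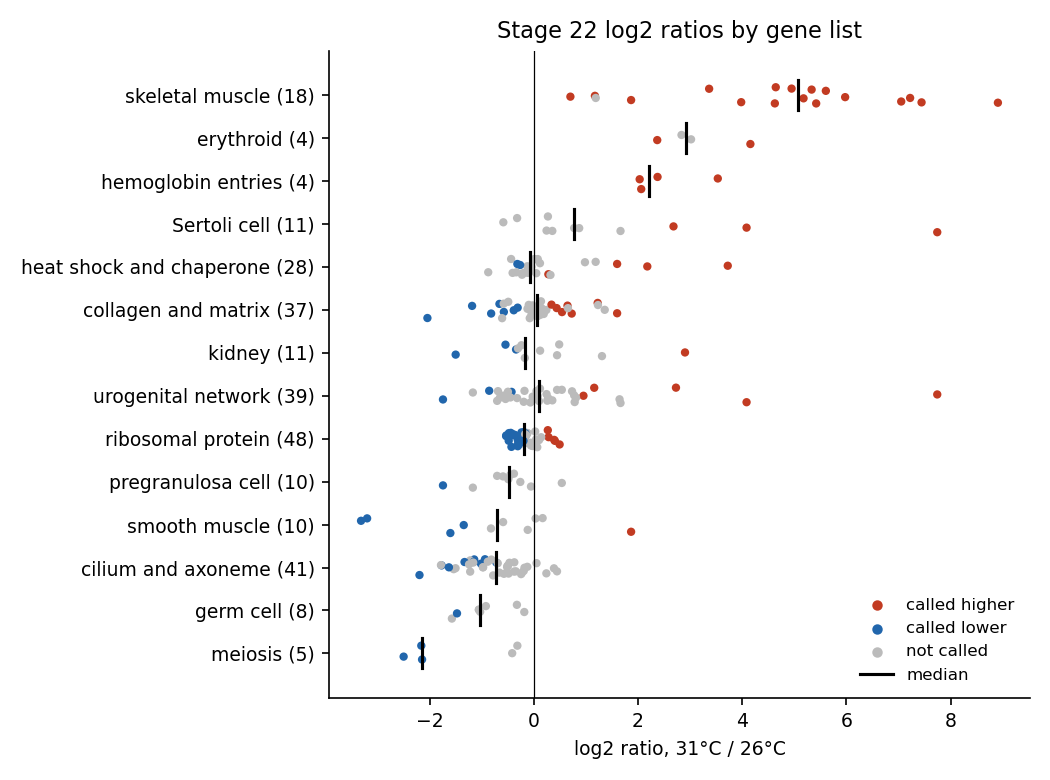
Each point is 1 gene of the named list with 20 or more counts (number in brackets), placed by its stage 22 log2 ratio of 31°C over 26°C, and black bars are list medians. Skeletal muscle genes lie to the right (median 5.06) and meiosis genes to the left (median -2.15). The cilium list and the hemoglobin entries were chosen after the data were seen.

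Red blood cell genes were higher in the warm library as well. All 4 entries described as hemoglobin subunits, which were chosen after their values were seen, were called higher. The alpha-A-like subunit had 2388 and 12516 counts (log2 ratio 2.06), the epsilon-like subunit 1880 and 12246 (2.37), the pi-like subunit 250 and 3640 (3.53) and the alpha-D-like subunit 50 and 260 (2.03). Their summed scaled count was 5316 at 26°C and 26553 at 31°C. The cool library was the low one: at the other stages this sum lay between 10520 and 58060 in every library, trunks and complexes included. In the painted turtle at stage 22 the 4 entries were also called higher at 31°C, with a median log2 ratio of 2.17. Of other red cell genes in the softshell, SPTB, the erythrocyte spectrin beta chain, had 20 and 466 counts (4.16). SLC4A1, the anion exchanger of the red cell membrane, had 32 and 212 (2.37). Both were called. Skeletal muscle genes were higher in the same library, and which cells gave the SPTB and SLC4A1 transcripts was not tested. Of 7 endothelial genes none was called, although 6 of them had a positive log2 ratio, and of 8 leukocyte and macrophage genes 1 was called, SPI1, a transcription factor of myeloid cells, with 76 and 342 counts (1.83). In a bulk library fewer cells of a type and less RNA per cell cannot be told apart.

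In the warm library 3 genes of the Sertoli cell were higher, in the direction opposite to stage 19 and to the painted turtle. AMH, the hormone that removes the Müllerian duct in males, had 0 counts at 26°C and 230 at 31°C. Against the floor of 3 counts it was 61.0-fold higher, which is not a lower bound. DMRT1, the transcription factor that maintains the testis, had 10 and 230 counts, a log2 ratio of 4.08 (interval 2.93 to 5.84). CLDN11, the tight junction protein between Sertoli cells, had 122 and 988 counts, a log2 ratio of 2.68 (2.30 to 3.10). The 3 genes passed the dispersion test too. The cool library was the low one for each, and at or near 0 for AMH and DMRT1.

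The other Sertoli cell genes did not pass. SOX9, which acts upstream of AMH in mammals, had 120 and 182 counts and a log2 ratio of 0.27 (-0.21 to 0.77). DHH, a signal from Sertoli cells to Leydig cells, had 22 and 48 counts (0.77), and FGF9, a growth factor that sustains SOX9 in mice, had 96 and 80 (-0.59). GATA4 had 16 and 26 counts and NR5A1 40 and 40, too few to show a modest difference. Of the 11 listed genes measured, 3 were higher and none lower, with a median log2 ratio of 0.77. Of these 11 genes, 9 had a positive log2 ratio and 2 a negative one. The 3 called genes had the largest ratios, and the 8 not called lay between -0.59 and 1.66.

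The direction differed between stages of the same species. At stage 19 the scaled count of AMH was 353 at 26°C and 126 at 31°C, that of DMRT1 was 983 and 401, and that of CLDN11 was 2085 and 827; all were called lower at 31°C. From stage 19 to stage 22 the cool library thus went from the higher to the lower level of each. In the 31°C libraries, AMH was 126 and 213 at stages 19 and 22 and CLDN11 was 827 and 915, while DMRT1 was 401 and 213. The Wald test of the difference between the stage 22 and stage 19 log ratios gave 4.01 for CLDN11 (adjusted p = 1.81e-77) and 5.36 for DMRT1 (adjusted p = 2.82e-15). For AMH, which was at 0 in 1 of the 4 libraries, the same Wald test did not pass 1e-10 (adjusted p = 0.000141). SOX9 passed it (adjusted p = 3.50e-14), with a stage 19 log2 ratio of -2.29. In the painted turtle at stage 22 the log2 ratio was -10.16 for AMH, -4.04 for DMRT1, -4.33 for CLDN11 and -2.07 for SOX9, all called lower at 31°C.

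**Figure D3:**
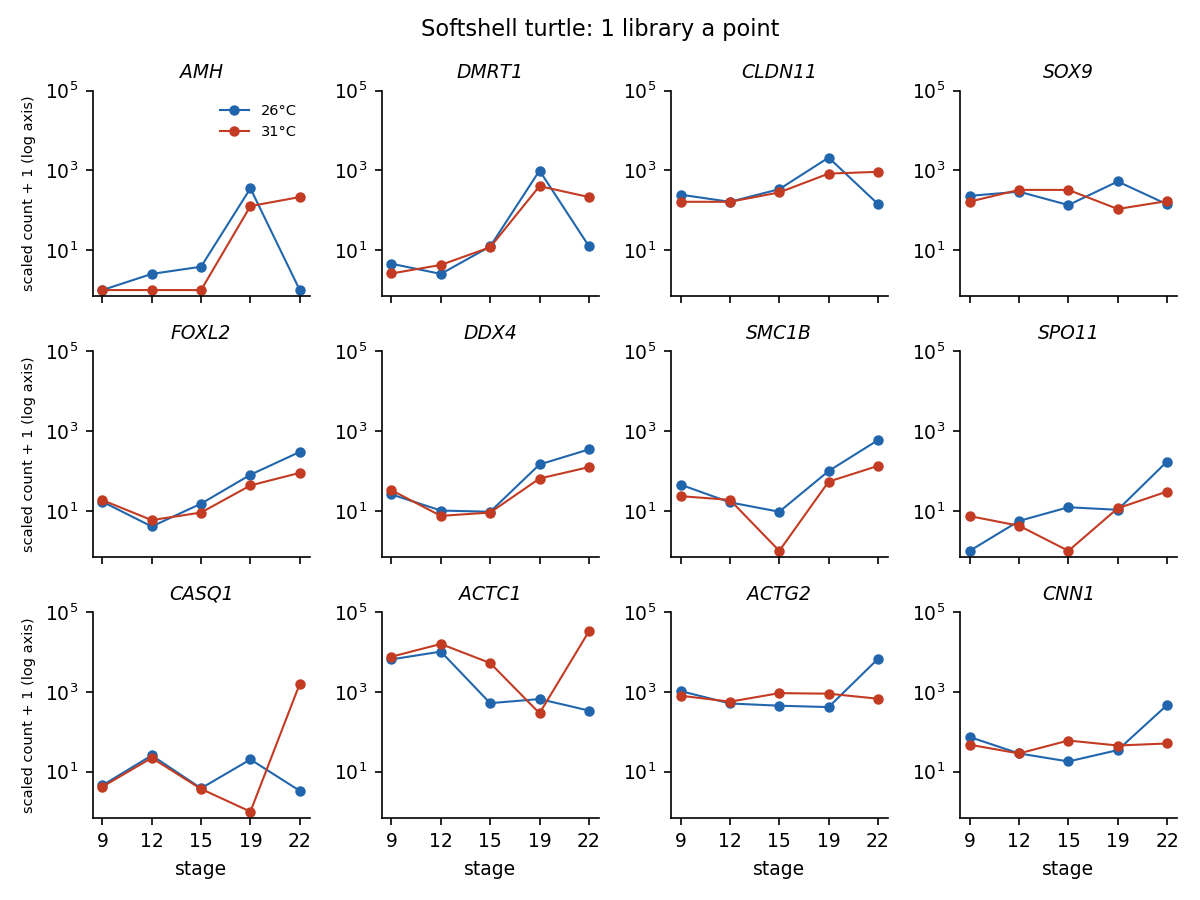
Scaled counts plus 1 (log axis) of 12 genes in the 10 softshell libraries by stage, with 26°C in blue and 31°C in red; each point is 1 library. Only stages 19 and 22 are gonads, the earlier ones being trunks or complexes. AMH, DMRT1 and CLDN11 were higher at 26°C at stage 19 and higher at 31°C at stage 22, and SMC1B, SPO11, ACTG2 and CNN1 were highest in the 26°C library of stage 22.

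Of the genes of the ovarian supporting cell, 1 was called, and it was lower in the warm library. FOXL2, the transcription factor that maintains granulosa cells, had 258 counts at 26°C and 96 at 31°C, a log2 ratio of -1.74 (interval -2.26 to -1.27). It was called lower at 31°C but missed the dispersion test (adjusted p = 0.132 in edgeR's exact test). RSPO1, which activates Wnt signalling in the ovary, had 62 and 34 counts (-1.17), and FST, an activin antagonist of the ovary, had 862 and 664 (-0.70); neither was called. CYP19A1, aromatase, which makes estrogen, had 14 and 26 counts and a log2 ratio of 0.54 (-0.87 to 2.13), so no difference was detectable at this depth. Of 11 pregranulosa genes 10 had 20 or more counts, 1 was lower and none higher, and the median log2 ratio was -0.47. FOXL2 had scaled counts of 79.7 at 26°C and 42.6 at 31°C at stage 19, and 300.2 and 88.9 at stage 22. In the painted turtle at stage 22 these 10 genes had a median log2 ratio of -0.26, with 2 called higher at 31°C and 1 lower. The painted turtle had a log2 ratio of 3.63 for FOXL2 and 5.10 for CYP19A1 at stage 22, of which CYP19A1 was called; the difference between species passed the Wald test for neither at 1e-10 (adjusted p = 1.54e-09 for FOXL2 and 0.00340 for CYP19A1).

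In the warm library 3 genes of meiosis were lower. SPO11, the enzyme that makes the DNA breaks that start meiotic recombination, had 148 counts at 26°C and 32 at 31°C, a log2 ratio of -2.50 (interval -3.42 to -1.75). MEIOB, a single-strand binding protein of meiotic recombination, had 188 and 52 counts (-2.16, -2.87 to -1.54). SMC1B, the meiotic cohesin subunit, had 510 and 144 counts (-2.15, -2.55 to -1.77). The high values were those of the cool library of stage 22: the scaled count of SMC1B went from 99.0 to 593 at 26°C and from 53.3 to 133 at 31°C, and that of SPO11 from 9.66 to 172 at 26°C and from 10.7 to 29.6 at 31°C. TEX11 (64 and 60 counts) and MSH4 (24 and 24), both of the crossover pathway, were not called. Of the 5 meiosis genes measured, 3 were lower and none higher, with a median of -2.15. SMC1B passed the dispersion test, whereas SPO11 (adjusted p = 0.484) and MEIOB (adjusted p = 0.203) did not in edgeR's exact test. CCDC79, also known as TERB1, which ties meiotic telomeres to the nuclear envelope, had 110 and 14 counts (-3.21, -4.68 to -2.16) and passed both.

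Among general germ cell genes 1 was called. DDX4, the RNA helicase VASA that marks germ cells, had 298 and 134 counts, a log2 ratio of -1.47 (interval -1.92 to -1.06), lower at 31°C. MAEL (144 and 88 counts), PIWIL1 (368 and 222) and TEX15 (78 and 78), of the small RNA pathway that silences transposons, were not called. Of 10 germ cell genes 8 had 20 or more counts, and all 8 had a negative log2 ratio, with a median of -1.04. DDX4 did not pass the dispersion test (adjusted p = 0.384 in edgeR's exact test). The same list had a median of -1.08 at stage 19, where 2 of its genes were called lower. The summed scaled count of the germ cell list was 1520 at 26°C and 817 at 31°C, while that of the meiosis list was 1087 and 289, a ratio of 3.76 between the libraries for meiosis against 1.86 for germ cells. The Wald test of the stage 22 against the stage 19 log ratio did not pass 1e-10 for SMC1B (adjusted p = 0.00955), SPO11 (0.0368) or DDX4 (0.630).

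**Figure D4:**
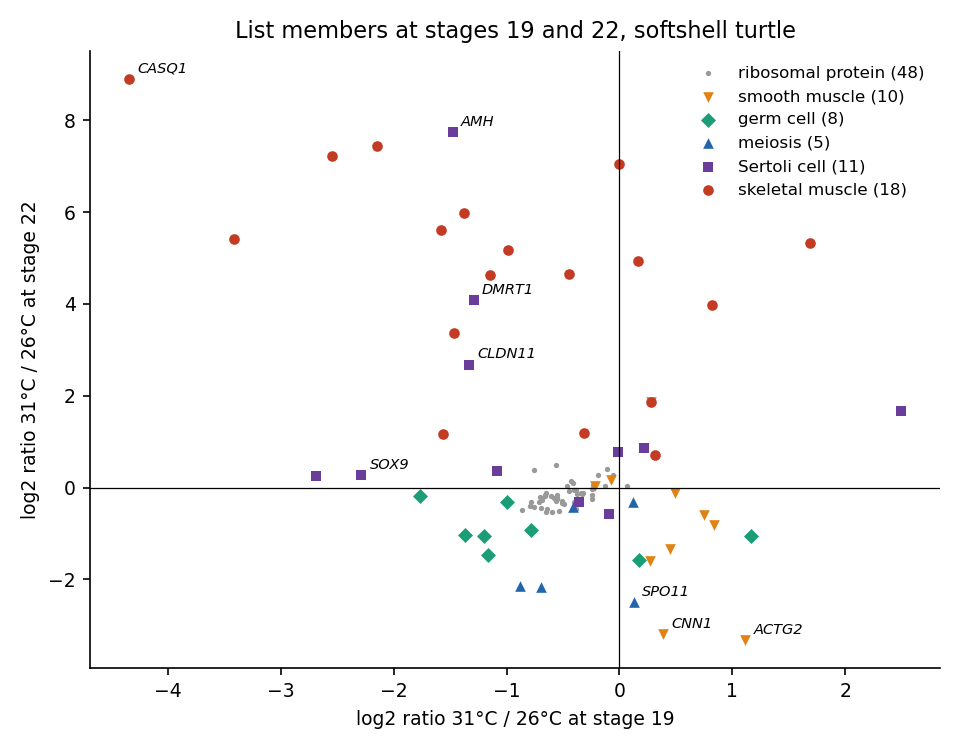
Each point is 1 gene with 20 or more counts at stage 22, with its softshell log2 ratio of 31°C over 26°C at stage 19 across and at stage 22 up, for 6 lists. Most skeletal muscle genes and AMH, DMRT1 and CLDN11 lie in the upper left (median stage 19 ratios of -1.07 and -1.09 for the skeletal muscle and Sertoli cell lists), and 6 of the 8 germ cell genes lie in the lower left.

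Cilia carry the motile or sensory axoneme of epithelial cells. Of 43 genes of the cilium and its axoneme, a list drawn up after the data were seen, 41 had 20 or more counts, 9 were called lower and none higher, and the median log2 ratio was -0.72. EFHB, a microtubule inner protein of the axoneme, had 178 and 48 counts (-2.19, interval -2.94 to -1.56). NME5, a component of the radial spoke, had 366 and 134 counts (-1.77, -2.20 to -1.37). CFAP206 had 396 and 160 (-1.63), and EFHC2 798 and 398 (-1.33). DNALI1 and DNAH7, an axonemal light intermediate chain and a heavy chain of dynein, had log2 ratios of -1.15 and -1.14. EFHB and NME5 passed the dispersion test. The list had a median of -0.15 at stage 19 and 0.09 in the painted turtle, and none of its genes was called at stage 19. Its summed scaled count was 14679 at 26°C and 8694 at 31°C at stage 22. A like gap was present in the stage 15 complexes, with 15080 and 9447. At stages 9, 12 and 19 the sum lay between 7006 and 7828 in every softshell library.

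In the warm library 4 smooth muscle genes were lower. ACTG2, the enteric smooth muscle actin, had 5780 counts at 26°C and 728 at 31°C, a log2 ratio of -3.32 (interval -3.48 to -3.16). CNN1, calponin, had 402 and 54 counts (-3.20, -3.86 to -2.64). MYH11, smooth muscle myosin heavy chain, had 3298 and 1364 (-1.60, -1.73 to -1.47), and ACTA2, vascular smooth muscle actin, had 4164 and 2058 (-1.35). All were called lower. Of 11 smooth muscle genes 4 were lower and 1 higher, with a median of -0.71. The 1 that was higher was DES, desmin, with 722 and 3310 counts (1.87), which striated muscle also expresses and which the skeletal muscle list holds too. ACTG2, CNN1 and ACTA2 passed the dispersion test and MYH11 did not. As with the striated actins, ACTG2 and ACTA2 could share reads.

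At stage 19 none of these genes was called lower. The scaled count of ACTG2 was between 416 and 1049 in 9 of the 10 softshell libraries and reached 6726 in the cool library of stage 22. That of CNN1 was between 17.1 and 73.1 in the other 9 and 468 there. These 9 include trunks and complexes. At stage 19 ACTG2 had a log2 ratio of 1.12 and was called higher at 31°C. The change of the log ratio from stage 19 to stage 22 was -4.43 (adjusted p = 3.91e-188 in the Wald test). In the painted turtle at stage 22 the smooth muscle genes lay on the other side, with 8 called higher at 31°C and none lower, among them ACTG2 (3.62) and CNN1 (3.92).

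Matrix genes were split. Of 37 genes of collagens and the extracellular matrix 7 were higher and 7 lower, with a median of 0.07. COL3A1, a fibrillar collagen of soft tissue, had 21470 counts at 26°C and 11860 at 31°C (log2 ratio -1.19), 1 of the 10 largest losses of scaled counts. TNC, tenascin C, had 534 and 162 counts (-2.04, interval -2.43 to -1.69). SERPINH1, the collagen chaperone HSP47, had 418 and 1592 counts (1.60, 1.38 to 1.83), and MMP14, a membrane-bound matrix protease, had 212 and 624 (1.23). COL11A1, a collagen of cartilage, had 384 and 1684 counts (1.80), but it belongs to the cartilage list and is not among the 37. It was the only gene called of the 7 cartilage genes with a count. Among the 5 of these with the most counts, 3 had a positive log2 ratio and 2 a negative one, with a median of 0.44. TNC and SERPINH1 passed the dispersion test, and COL3A1, MMP14 and COL11A1 did not. SERPINH1 had the higher value at 31°C within every stage, with scaled counts of 360 to 739 in the 5 libraries of 26°C and 741 to 1523 in the 5 of 31°C. It was also called higher in the painted turtle at stage 22 (log2 ratio 1.46).

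Of 44 entries of the urogenital network, the vertebrate genes of gonad and kidney formation that the study listed, 39 had 20 or more counts, 5 were higher and 3 lower, and the median log2 ratio was 0.10. Beside AMH and DMRT1, the higher genes included PDGFRA and CRABP2. PDGFRA, a growth factor receptor of interstitial cells, had 676 and 1644 counts (0.95, interval 0.77 to 1.14). CRABP2, a retinoic acid binding protein, had 242 and 680 (1.16, 0.86 to 1.47). The lower genes beside FOXL2 were KDM3A, a histone demethylase that activates Sry in mice, with 736 and 510 counts (-0.86), and CTNNB1, beta-catenin, with 22522 and 21032 (-0.43). The high depth of CTNNB1 made a small difference pass. None of the 3 lower genes passed the dispersion test.

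The remaining network genes were not called. LHX9 (180 and 390 counts), IGF1R (492 and 1028) and GATA2 (154 and 340) had log2 ratios of 0.78, 0.73 and 0.81, of which IGF1R was called when scaled by TMM or by library totals, and CXCL12 (32 and 128) and SOX10 (16 and 66) had 1.64 and 1.66 on few counts. FGFR2, the receptor of FGF9, had 896 and 698 counts (-0.69). ESR1, estrogen receptor alpha, had 106 and 94 counts (-0.50, interval -1.10 to 0.09). EP300, APC, SIX4, ZFPM2, PTCH1, TCF21, EMX2 and FHL2 lay between -0.19 and 0.27. DMRT2 (0 and 18 counts) was 4.78-fold higher at 31°C against the floor, which is not a lower bound, and was not called. HPGDS (0 and 2 counts), SOX3 (2 and 2), NF2 and ESR2 (8 and 10 each) had too few counts to compare. Most members of the network thus did not pass the test.

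**Figure D5:**
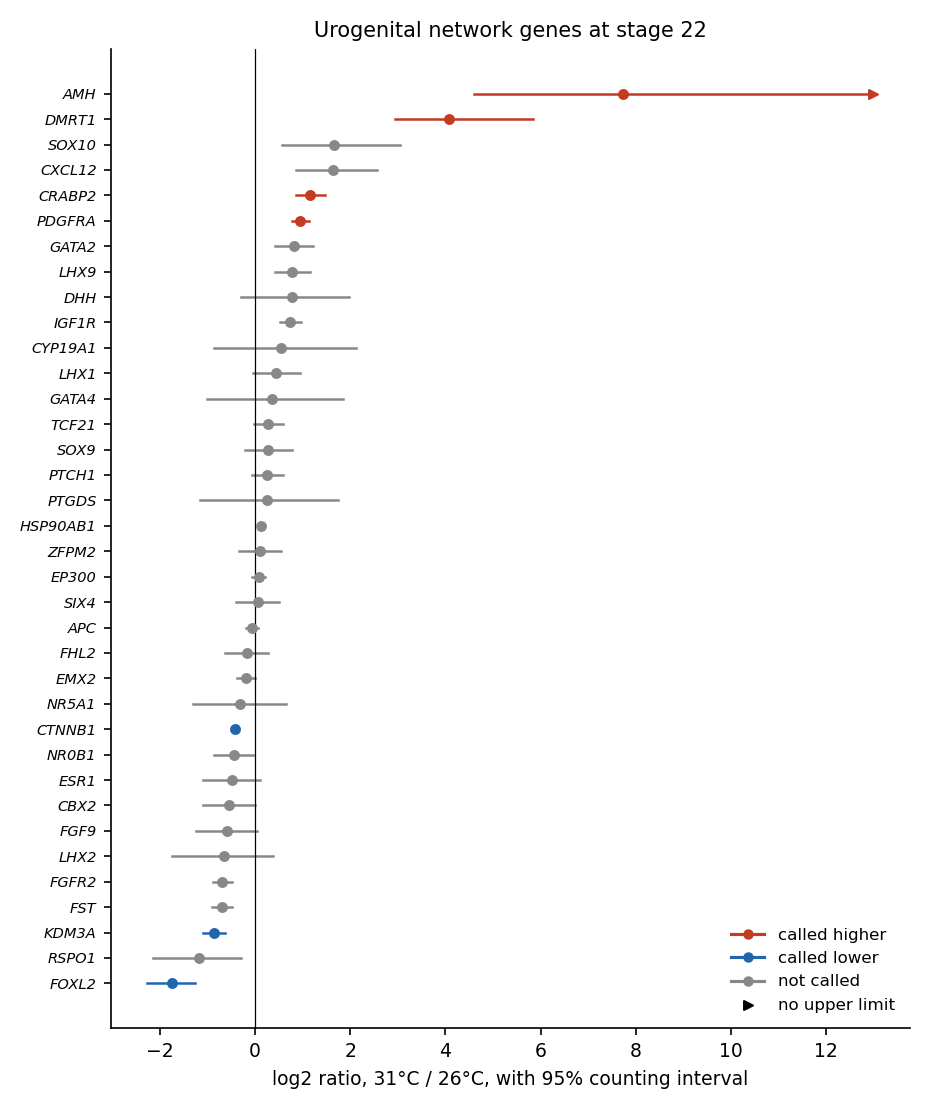
Log2 ratios of 31°C over 26°C at stage 22 for 36 urogenital network entries with 20 or more counts, with 95% counting intervals; the 4 drawn that were called higher are red, the 3 called lower blue and the rest grey. AMH, at 0 counts in the 26°C library, has no upper limit, and its point depends on the 1 added to each scaled count.

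Of 12 kidney genes 1 was higher and 3 were lower. SIX2, which marks nephron progenitors, had 34 and 326 counts (log2 ratio 2.90, interval 2.21 to 3.75), and CALB1, a calcium buffer of the distal tubule, had 1452 and 644 (-1.50, -1.70 to -1.31). CUBN and LRP2, partners in proximal tubule uptake, had small called differences of -0.54 and -0.34. The 3 lower kidney genes did not pass the dispersion test. SIX2 was also called higher at 31°C at stage 19 (2.71). CALB1 was called higher at stage 19 (1.69), opposite to stage 22. The summed scaled count of the kidney list was 17560 at 26°C and 13718.5 at 31°C at stage 22, against 4307 and 7891 at stage 19. In the stage 15 complexes it was 13721 and 22479. The part of this list in the comparisons with stage 19 was not tested. The adrenal list had 1 of its 5 genes called, higher at 31°C. Its median log2 ratio was 0.75 at stage 22 and 2.15 at stage 19.

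Among genes of the temperature response, 4 of 29 heat shock and chaperone genes were higher and 2 lower. Beside SERPINH1 these were HSPB1 (56 and 322 counts, log2 ratio 2.18), HSPB2 (12 and 212, 3.72) and CALR, a calcium-binding chaperone of the endoplasmic reticulum (0.28). HSPB2 is a small heat shock protein known from striated muscle, and it shared the direction of the muscle genes at stage 22. The lower genes were HSP90AA1 (-0.26) and HSPA9 (-0.32). Of these 6 called genes only SERPINH1 passed the dispersion test. With scaling by TMM or library totals no chaperone gene was called lower. CIRBP, the cold-inducible RNA-binding protein, had 15450 and 22738 counts, a log2 ratio of 0.23 toward the warm library. Its high depth let this small difference be called higher, and it did not pass the dispersion test. At stage 19 the log2 ratio of CIRBP was 0.63. The median over the 28 of these chaperones with 20 or more counts was -0.07, and 15 TRP channel genes held no call.

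Ribosomal proteins, the structural parts of the ribosome, had log2 ratios between -0.53 and 0.50. Of 48 such entries, matched by symbol, 26 were lower and 5 higher, with a median of -0.19. Kinases and a binding protein whose symbols begin with the same letters were left out after their values were seen. RPS12 (41148 and 37122 counts, log2 ratio -0.48) and RPL5 (24200 and 21758, -0.48) were among the lower, and RPLP0 (40848 and 72312, 0.50) and RPSA (20716 and 31664, 0.28) among the higher. The high depth of most of these entries let small differences pass Fisher's test. Over all tested entries 3.13% were called lower and 2.08% higher. The quartiles of the log2 ratio over entries with 20 or more counts were -0.36 and 0.42. None of the 48 ribosomal entries passed the dispersion test. With scaling by library totals 20 were lower and 5 higher. At stage 19 the list had 42 genes called lower and none higher, and in the painted turtle at stage 22 it had 47 called higher and none lower. Respiratory chain genes had 3 called lower of 28, and cell division genes had 1 called higher of 27, TOP2A, a DNA topoisomerase of dividing cells (0.47).

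The stage 22 calls were set beside those of the neighbouring stage and of the other species, none of which share libraries with them. Of the 249 entries higher at stage 22, 53 were also higher at stage 19, which was 21.3% of the stage 22 list and 21.2% of the stage 19 list, and 31 were lower there. Of the 375 lower entries, 137 were also lower at stage 19, 36.5% of the one and 31.1% of the other list, and 9 were higher there. At stage 19, 2.09% of entries were called higher and 3.69% lower. In the painted turtle at stage 22, where 8.81% were called higher and 5.81% lower, 94 of the 249 were higher and 18 lower, whereas 42 of the 375 were lower and 110 higher. The difference between stages passed the Wald test for 335 of 9586 genes and the difference between species for 863 of 9789.

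Of the other genes with the lowest ratios, PCP4, a small calmodulin-binding protein, had 392 and 52 counts (log2 ratio -3.22, interval -3.89 to -2.65), UPF3A, of nonsense-mediated RNA decay, had 282 and 70 (-2.32), and PPP2R2C, a regulatory subunit of protein phosphatase 2A, had 270 and 76 (-2.14). TCERG1L (154 and 34 counts, -2.47), C2H7orf57 (504 and 164, -1.94) and CCDC83 (414 and 138, -1.91) followed, and all 6 passed the dispersion test. PI15, a secreted peptidase inhibitor, had 288 and 104 counts (-1.79) and did not pass it. Among the genes that lost most in scaled counts were BTG1, an antiproliferative gene (11126 and 7196, -0.96), and HMGB3, a chromatin protein (15786 and 11980, -0.73).

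Skeletal muscle and hemoglobin transcripts moved with these differences, and their part in any other gene's difference was not tested. The liver and plasma protein list, summed over 10 genes, was at 2581 and 2498 scaled counts at stage 22, and none of its genes was called. At stage 19 the same sum was 43870 at 26°C and 1095 at 31°C, which was 0.598% and 0.0161% of all counts, with a median log2 ratio of -2.82. Its part in the comparisons with stage 19 was not tested.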

How the data were processed

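Gonads of 5 pooled, unsexed softshell embryos per library were sequenced as paired ends by the study. The authors trimmed reads with Trimmomatic 0.27, aligned those of both species to the painted turtle genome and counted reads per gene with HTSeq without using strand; the deposited values are raw counts. The paper bases its analyses on a de novo assembly for each species. Assembled transcripts were mapped to painted turtle genes, and the reads were then mapped to those genes. Reads of antisense or near-identical genes cannot be told apart, and softshell reads that diverge from the painted turtle genome are lost. Symbols came from the study's supplementary tables and RefSeq and matched 6784 of 12678 entries; of 1604 named by both, 1531 agreed.

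Counts were halved to read pairs and compared by two-sided Fisher's exact test in Python 3.11.15 (SciPy 1.17.1) against library sizes proportional to the 75th percentile, in place of the study's added housekeeping scaling, with Benjamini-Hochberg adjustment and the study's threshold of 1e-10. Differences between 2 log ratios were tested by a Wald test on read pairs (0.5 added) over genes with 20 or more counts in each pair. Scaled counts were multiplied by the geometric mean of the 10 percentiles (382). Intervals, floors (3 counts) and shares cover counting error only; PCR copies are not independent molecules. Alternatives were TMM, DESeq2 size factors, library totals, the percentile without the top 1% of genes, counts as deposited, a minimum of 20 counts, a pseudocount of 5, and exact tests of edgeR 4.0.16 (DESeq2 1.42.0, R 4.3.3). edgeR dispersions were fitted with stage and temperature terms because no condition had replicates. The tests were checked on simulated data, but of the edgeR tests only that with dispersions of all 10 libraries was simulated, not the dispersion test.

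Genes were named by rule: with a symbol, called and with at least 100 counts, the 15 highest and 15 lowest log2 ratios and the 10 largest gains and losses; every urogenital network gene; up to 4 called members of each list; and entries at 0 in 1 library with 40 or more in the other. Other genes named as list members or markers were chosen after their values were seen. The comparison, members and lists were chosen with earlier results of these data known. Some members are counted in the lists but not reported here by name.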

Additional observations from a re-analysis of the deposited data

Results flagged for a closer look

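In 12 named genes the log2 ratio of 31°C over 26°C had opposite called directions at softshell stage 22 and in another pair of libraries, at least 2-fold in each, and the difference passed the Wald test at 1e-10. Each pair was 1 library against 1, so the test compares libraries. The genes were picked by opposite calls in the same read pairs, so the Wald test adds little to those calls. They were sought among named genes only, and no share over all entries is given. Against softshell stage 19, the stage 22 log ratio was higher by 7.76 for ACTC1, 5.93 for HSPB2, 5.36 for DMRT1, 4.01 for CLDN11 and 3.60 for COL11A1, and the difference was -4.43 for ACTG2 and -3.19 for CALB1. Against the painted turtle at stage 22, it was higher by 8.10 for DMRT1, 7.01 for CLDN11 and 5.48 for COL11A1, and the difference was -7.12 for CNN1, -6.93 for ACTG2, -3.75 for TNC, -3.12 for COL3A1 and -2.90 for MYH11. AMH differed from the painted turtle by 17.68, a value that depends on the 0.5 read pairs added to its 0 counts and is no bound. The 5 smooth muscle and matrix genes CNN1, ACTG2, MYH11, TNC and COL3A1 were all lower at 31°C in the softshell and higher at 31°C in the painted turtle.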

How the results depend on the processing

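The main counts were 249 entries higher and 375 lower. With counts taken as deposited, without halving, 565 were higher and 766 lower. In edgeR's exact test at an adjusted p under 0.05, dispersions of all 10 softshell libraries gave 0 higher and 0 lower, with 490 and 329 at an unadjusted p under 0.05 and a smallest adjusted p of 0.0703. Chosen after seeing the data, trended dispersions of the 10 libraries gave 155 higher and 30 lower, and gene-wise dispersions of the 8 libraries of stages 9 to 19 gave 151 higher and 27 lower. The 10 libraries include the compared pair, so a large difference between them enters its own dispersion. Scalings by TMM, DESeq2 size factors, library totals or the trimmed percentile, and the minimum of 20 counts, gave 245 to 286 higher and 308 to 397 lower, and none of the 159 genes named by rule changed direction under these settings, the deposited counts, a pseudocount of 5 or the first of the edgeR tests. TMM and library totals ended the calls of 5 and 9 of them, EEF1A1, GPI and HSPA9 among them, with FGFR3 (-0.72) having the lowest log2 ratio, and each gave calls to 2 others, IGF1R and HSP90AB1. Both raised the urogenital genes called higher from 5 to 7, with 3 lower. No paired analysis was possible because each temperature and stage had 1 library. Differences under 2-fold in genes of few counts were below what this depth could call.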
